A study of Mus musculus with 12 samples.

Results

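The epithelial chemokines are 10 genes that intestinal epithelial cells are known to secrete or to carry on their surface: Ccl20, Ccl25, Ccl28, Cxcl1, Cxcl2, Cxcl3, Cxcl5, Cxcl10, Cxcl16 and Cx3cl1. They were taken by name from the 24906 genes of the tables, and all 10 were found. The libraries are bulk RNA-Seq of mouse small intestinal tumor organoids with the genotype Smad4KO;BRAFV600E/+;pINDUCER-SMAD4, in which Smad4 was deleted and oncogenic BRAF was switched on by Villin-CreERT2, a Cre recombinase of the intestinal epithelium. All lines, controls included, are labelled as carrying pINDUCER-SMAD4, which was delivered by lentivirus and turns on SMAD4 under doxycycline (dox). Cultures were either untreated or given 4 µg/mL dox for 48 h. In BME, a basement membrane extract in which organoids grow embedded, lines 682, 700 and 889 were each sequenced untreated, and dox was given to lines 700 and 889. The treated culture of line 682 is marked as mock after its dox dose, and it is called the mock library. On tissue culture plastic there were 3 untreated and 3 dox libraries, of lines 560, 700 and 889. Each line gave 1 untreated and 1 treated library per environment, so that each change between them is a single pair. The main fits held no term for the line, so their p-values describe the spread between libraries within the groups. Lines 700 and 889 are in both environments, and their libraries were counted there as separate. The mock library was placed with the controls (dox n = 2, control n = 4 in BME), so that line 682 counts there with 2 libraries. That placing is inferred from the study's text, which gives vehicle n = 4 and dox n = 2. Whether the mock culture received dox is therefore not settled. The methods also describe transduction with a mock plasmid, and whether the label refers to it is not stated. Young adult mice were given tamoxifen to start the recombination, and tumor organoids were taken months later. The sexes of the mice are not given in the sources used here, and neither is the species of the SMAD4 sequence in the construct.

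Chemokines are small secreted proteins that direct the movement of leukocytes through G protein-coupled receptors. In the gut, epithelial cells use them to recruit neutrophils during infection and injury and to place lymphocytes and dendritic cells in the mucosa. Many of the inducible members are switched on by NF-κB, a transcription factor that answers IL-1, TNF and bacterial products, whereas others are expressed at a steady level. SMAD4, the common partner of the TGFβ and BMP signaling SMADs, is known to restrain inflammatory signals of the intestinal epithelium, and a lower chemokine level with dox is the direction such restraint would give.

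The targeted gene was read first. Untreated BME cultures of lines 682, 700 and 889 had a Smad4 level of 8.88, 6.53 and 6.23 FPKM (fragments scaled to transcript length and to sequencing depth). Dox brought it to 17.2 FPKM in line 700 and to 27.3 FPKM in line 889, and the mock culture stood at 10.3 FPKM. Untreated plastic cultures of lines 560, 700 and 889 had 1.54, 2.99 and 4.76 FPKM, against 73.6, 18.1 and 48.9 FPKM under dox. The groups did not overlap in either environment (exact permutation test, two-sided, p = 0.0667 in BME and p = 0.1 on plastic, the smallest values these sample numbers allow). Line 700 had the lowest Smad4 level of the dox libraries in both environments. The 8 epithelial markers summed to between 4231 and 17386 FPKM per library, and 15 leukocyte markers to between 17.9 and 85.6 FPKM. Of the leukocyte markers, Ptprc stayed at or below 0.10 FPKM and Adgre1 was listed at 0 in all 12 libraries. By contrast, Cd14 lay between 10.9 and 36.8 FPKM and Cd68 between 2.70 and 38.7 FPKM. In these bulk samples a change in the number of cells that express a gene and a change in the RNA per cell cannot be told apart. Libraries held 14507293 to 16380935 reads in BME and 16981468 to 21027887 on plastic, rebuilt from the tables, of which 90 to 25167 came from Ccl20 and 0 to 175 from Cxcl3.

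The genes lie at few places in the genome. Of the inducible CXC members, Cxcl5, Cxcl3, Cxcl1 and Cxcl2 share a stretch of 146611 bases on chromosome 5 (chr5:91188325-91334935 in NCBIM37, the Ensembl name of mm9) with Ppbp, Pf4 and Cxcl15. Cxcl1 and Cxcl2 stand 10755 bases apart. Cxcl10 lies farther along the same chromosome (chr5:92775664-92777915, minus strand), Ccl20 at chr1:83113341-83115742, Cx3cl1 at chr8:97295909-97306323 and Cxcl16 at chr11:70267485-70273486 (minus strand). Ccl25 has 2 overlapping entries, the longer at chr8:4325210-4360020. Cxcl2 and Cxcl3 share 80 words of 31 bases in their protein-coding transcripts, 4.37% of the words of Cxcl2 and 8.17% of those of Cxcl3, and none of the other 7 annotated members shares any with another gene. For most of their length, reads of these genes could therefore be told apart.

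The promoters of the inducible members are shown because most of these genes were higher together in lines 560 and 889 on plastic and because NF-κB, their known activator, binds a short DNA element. RefSeq promoter windows (GRCm38.p6, 250 bases before to 50 after the start) were found for 8 of the 10 members, in 9 windows. The set used here held none under the names Cxcl5 and Cxcl16, which says nothing of their promoters. Matches to the κB consensus on either strand were present in 5 of these 8 members and in 8.46% of all 32851 windows. The following are the 170 bases before the start of each, with κB matches in capitals; overlapping matches run together.
Ccl20, chr1:83116596-83116765 (plus strand): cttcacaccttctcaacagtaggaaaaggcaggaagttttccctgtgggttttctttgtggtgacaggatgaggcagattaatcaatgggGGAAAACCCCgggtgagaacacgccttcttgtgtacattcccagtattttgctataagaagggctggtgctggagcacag
Cxcl1, chr5:90891075-90891244 (plus strand): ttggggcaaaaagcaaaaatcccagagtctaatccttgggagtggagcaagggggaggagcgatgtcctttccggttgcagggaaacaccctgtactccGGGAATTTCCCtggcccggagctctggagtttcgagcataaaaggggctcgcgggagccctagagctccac
Cxcl2, chr5:90903729-90903898 (plus strand): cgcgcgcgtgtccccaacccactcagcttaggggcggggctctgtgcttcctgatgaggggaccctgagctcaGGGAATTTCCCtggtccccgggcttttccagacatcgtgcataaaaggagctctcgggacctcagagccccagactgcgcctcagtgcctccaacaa
Cxcl3, chr5:90785931-90786100 (plus strand): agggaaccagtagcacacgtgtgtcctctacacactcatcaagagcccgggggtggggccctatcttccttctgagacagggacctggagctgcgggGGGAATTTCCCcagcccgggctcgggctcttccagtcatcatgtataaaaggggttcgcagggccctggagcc
Cxcl10, chr5:92348890-92349059 (minus strand): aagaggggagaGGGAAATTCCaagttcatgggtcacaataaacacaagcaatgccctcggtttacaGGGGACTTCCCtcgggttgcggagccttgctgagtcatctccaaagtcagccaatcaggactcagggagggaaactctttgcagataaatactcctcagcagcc

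Cxcl1, Cxcl2 and Cxcl3 carry the same form of the element, GGGAATTTCC, which is itself a κB match and is present in 0.0883% of all windows. It begins 71, 97 and 73 bases before their starts, and an overlapping κB match on the other strand begins 70, 96 and 72 bases before. The single match of Ccl20 begins 80 bases before its start. Cxcl10 has matches that begin 159, 104 and 103 bases before its start. The windows of Ccl25, Ccl28 and Cx3cl1 hold no κB match. Of other elements searched on both strands, the AP-1 letters TGANTCA were found in Cxcl10 and Ccl28 (7.81% of all windows), and the SMAD letters CAGAC in Cxcl1, Cxcl2, Cxcl3, Ccl25 and Ccl28 (49.6% of all windows). A match of letters is a description of the sequence and not evidence of binding.

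**Figure D1:**
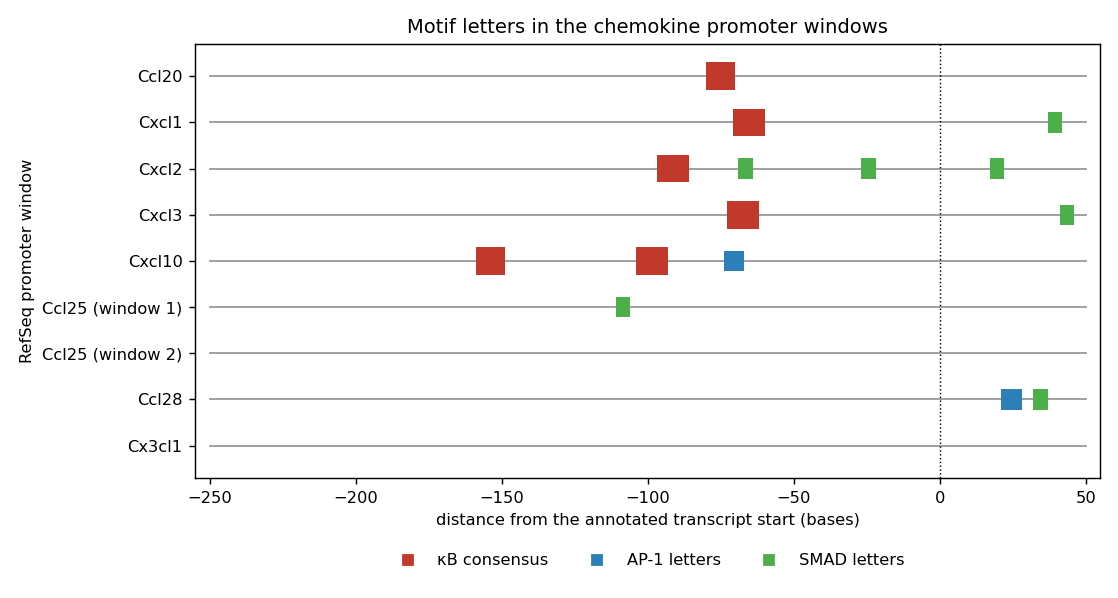
Positions of motif letters in the 9 RefSeq promoter windows of 8 chemokine genes, as distance in bases from the annotated start (dotted line); boxes mark the κB consensus (red), AP-1 letters (blue) and SMAD letters (green). κB matches lie in the windows of Ccl20, Cxcl1, Cxcl2, Cxcl3 and Cxcl10, and those of Cxcl1, Cxcl2, Cxcl3 and Ccl20 begin between 70 and 97 bases before the start.

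Without induced SMAD4, Cxcl16 was the most abundant member in both environments by its mean. In the BME control arm, Cxcl16, a membrane-bound chemokine for CXCR6-bearing lymphocytes, had the highest level (61.2 ± 12 FPKM, SD, n = 4), followed by Cx3cl1, the fractalkine that tethers CX3CR1-bearing phagocytes (42.2 ± 6.27 FPKM). The lowest Cxcl16 value (49.05 FPKM) lay just under the highest Cx3cl1 value (49.13 FPKM), and Ccl25 in untreated line 889 (42.9 FPKM) exceeded Cx3cl1 there (33.9 FPKM). Next came Ccl25 (15.3 ± 18.6 FPKM), Ccl20 (12.4 ± 4.97 FPKM) and Cxcl1 (9.68 ± 6.85 FPKM), whose ranges overlapped, and then Cxcl10 (3.81 ± 2.06), Cxcl5 (2.55 ± 1.65), Cxcl2 (2.43 ± 1.84) and Ccl28 (2.21 ± 1.47), which overlapped as well. Cxcl3 was lowest (0.684 ± 0.752 FPKM), with a range that overlapped that of Ccl28. On plastic the untreated order began with Cxcl16 (185 ± 28.2 FPKM, SD, n = 3), Ccl20 (49.7 ± 48.4 FPKM) and Cx3cl1 (19.8 ± 8.65 FPKM), and the ranges of Ccl20 and Cx3cl1 overlapped. Cxcl1 (9.44 ± 5.51), Ccl25 (5.04 ± 0.707) and Cxcl5 (4.76 ± 3.80) followed with overlapping ranges, and Cxcl3, Cxcl10, Cxcl2 and Ccl28 had means of 1.08, 0.575, 0.428 and 0.197 FPKM with overlapping ranges. The tables of the 2 environments were normalized separately, so no level was tested between them.

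**Figure D2:**
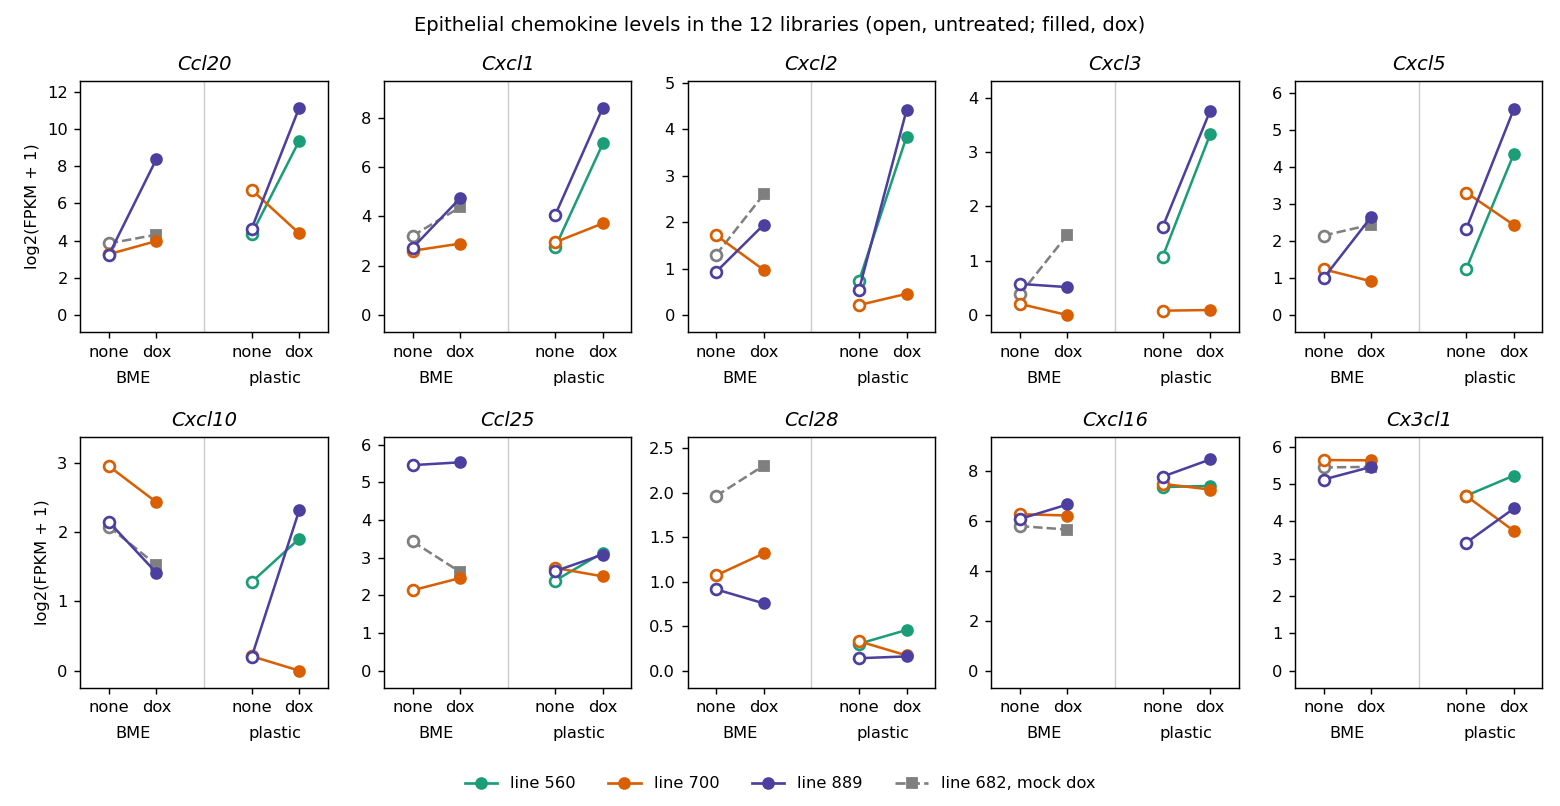
Level of each chemokine as log2(FPKM + 1) in all 12 libraries, with open symbols for untreated and filled symbols for dox libraries of the same line joined by a line (dashed, the mock pair of line 682). Ccl20, Cxcl1, Cxcl2, Cxcl3 and Cxcl5 climb steeply with dox in lines 560 and 889 on plastic, and line 700 does not share that climb.

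The main comparison asked which chemokines differed with SMAD4 re-expression, in BME and on plastic. In lines 560 and 889 on plastic, Ccl20 and the neutrophil chemokines Cxcl1, Cxcl2, Cxcl3 and Cxcl5 were far higher with dox, whereas in line 700 Ccl20 and Cxcl5 were lower, Cxcl1 was 1.80 times higher, and Cxcl2 and Cxcl3 had 6 reads or fewer per library. In BME, Ccl20, Cxcl1, Cxcl2 and Cxcl5 were higher by over 1 with dox in line 889 and none was in line 700. Across lines no member passed: limma on log2(FPKM + 1) called 0 of 10 members in BME and 0 of 9 on plastic at a Benjamini-Hochberg adjusted p under 0.05 with a change over 1, where 0.0231% and 0.0324% of all tested genes were called (3 of 12996 and 4 of 12333). At an unadjusted p under 0.05 with a change over 1, 0 members were higher and 0 lower in BME, where 0.746% and 0.208% of all genes were, and 2 of 9 (Cxcl1 and Cxcl2) were higher and 0 lower on plastic, where 2.37% and 1.27% were. Ccl28 was under the filter of a mean of 0.5 FPKM on plastic and was not tested there. Groups did not overlap for 0 members in either environment, against 6.33% of genes higher and 5.83% lower in BME and 7.87% and 7.26% on plastic. The median fitted change of the members was 0.10 in BME and 1.47 on plastic, and that of all tested genes was -0.01 and 0.01.

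Within the same-line pairs the contrast between lines was plain. In line 560 on plastic 9 of 9 tested members were higher with dox, with a median change of 2.26, and 5 were higher by over 1 and 0 lower by over 1, where 10% and 4.77% of all genes were. In line 889 on plastic 9 of 9 were higher, with a median of 2.14, and 6 were above 1 and 0 under -1, where 7.32% and 4.73% of genes were. In both lines 5 members (Ccl20, Cxcl1, Cxcl2, Cxcl3 and Cxcl5) were above 1, where 2.45% of genes were, and none of these 5 was above 1 in line 700, a course shown by 1.57% of genes. In line 700 on plastic 3 members were higher and 6 lower, with a median of -0.22. None of the 9 was above 1 there and 1 (Ccl20) was under -1, where 3.96% and 3.92% of genes were. In BME, line 889 had 7 members higher and 3 lower with a median of 0.46, with 4 above 1 and 0 under -1 (2.49% and 1.67% of genes), whereas line 700 had 4 higher and 6 lower with a median of -0.03 and none beyond 1 in either direction (1.75% and 1.79%). The median change of all genes lay within 0.01 of 0 in every pair.

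**Figure D3:**
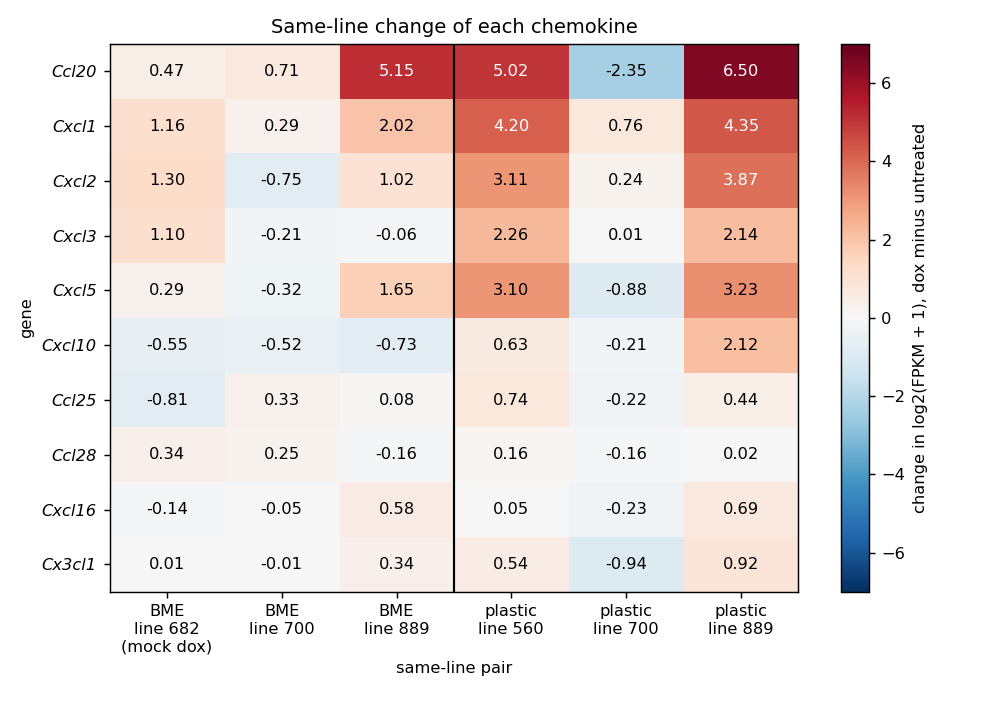
Change of each chemokine in log2(FPKM + 1), dox minus untreated, within each same-line pair (rows, genes; columns, pairs; red higher and blue lower with dox). The 2 columns of lines 560 and 889 on plastic hold positive values for all 10 genes, from 0.02 to 6.50, and the column of line 700 on plastic holds 7 negative values, with Ccl20 at -2.35.

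Ccl20, the ligand of CCR6 that draws dendritic cells and Th17 cells, had the largest same-line change of all members in 4 of 5 dox pairs. In BME it was 13.4, 8.66 and 8.46 FPKM in untreated lines 682, 700 and 889, 14.8 FPKM with dox in line 700, 334 FPKM with dox in line 889 and 19.0 FPKM in the mock library. The dox library of line 889 thus held 39.5 times the level of its untreated pair (3747 against 97 reads), and line 700 held 1.71 times (137 against 90 reads). The groups overlapped, since the mock library lay above the dox library of line 700. Plastic cultures held 19.4, 106 and 24.1 FPKM of Ccl20 in untreated lines 560, 700 and 889 and 660, 19.9 and 2262 FPKM with dox. It was 34.0 times higher with dox in line 560 and 93.9 times in line 889, but 5.29 times lower in line 700. With 2262 FPKM it was the 28th most abundant of the 16158 genes detected in the dox library of line 889, from place 3400 of 16255 in the untreated pair. Its same-line change was the 6th highest of 12996 genes in line 889 in BME, the 9th of 12333 in line 889 on plastic and the 13th in line 560, and the 39th lowest of 12333 in line 700 on plastic. The fitted change was 2.51 in BME (SE 1.12, limma adjusted p = 0.959) and 3.05 on plastic (SE 1.69, adjusted p = 0.690), with 95% intervals from -0.21 to 5.23 and from -0.98 to 7.09. Without the BME dox library of line 700 the BME change was 4.72 with a limma adjusted p of 0.0461, a fit whose dox arm is the single library of line 889, assumed to vary like the controls. Without the dox library of line 889 it was 0.31. On plastic, leaving out single libraries or whole lines gave 1.33 (without line 889) to 5.76 (without line 700, limma adjusted p = 0.0568).

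Cxcl1, Cxcl2, Cxcl3 and Cxcl5 are ligands of CXCR2, the main receptor by which neutrophils are recruited. Cxcl1, the most abundant of them, was 8.28, 5.10 and 5.60 FPKM in untreated BME lines 682, 700 and 889, 6.46 and 25.8 FPKM with dox in lines 700 and 889, and 19.7 FPKM in the mock library. Its plastic levels were 5.77, 6.76 and 15.8 FPKM in untreated lines 560, 700 and 889 and 124, 12.2 and 341 FPKM with dox. Its level with dox was 21.4, 1.80 and 21.6 times that without in these lines. Cxcl1 was the sole member higher with dox in all 5 dox pairs, as were 8.70% of the genes kept in both tables, and none was lower in all 5 (8.06% of genes), although untreated line 889 (15.8 FPKM) exceeded the dox library of line 700 (12.2 FPKM) on plastic. The fitted change was 0.59 in BME (SE 0.671, limma adjusted p = 0.963) and 3.11 on plastic (SE 1.14, unadjusted p = 0.0309, adjusted p = 0.567). In BME it ranged from -0.33 to 1.51 when single libraries were left out.

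Cxcl2 was 1.47, 2.29 and 0.908 FPKM in untreated BME lines 682, 700 and 889, 0.961 and 2.86 FPKM with dox in lines 700 and 889, and 5.06 FPKM in the mock library, the highest BME value. Untreated plastic cultures were all below 1 FPKM (0.665, 0.162 and 0.456 FPKM in lines 560, 700 and 889), and Cxcl2 reached 13.4 and 20.3 FPKM with dox in lines 560 and 889, which is 20.1 and 44.5 times higher (262 against 13 and 305 against 9 reads). In line 700 it was 0.374 FPKM with dox, from 6 reads against 3. The fitted change on plastic was 2.41 (SE 0.985, limma unadjusted p = 0.0465, adjusted p = 0.597). Without the plastic dox library of line 700 it was 3.63 and passed (limma adjusted p = 0.0180), and without that of line 889 it was 1.65. In BME the fitted change was -0.18 (SE 0.514, adjusted p = 0.984), lower with dox, and it turned to 0.14 when the mock library was left out.

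Cxcl3 was the least expressed of the group. In BME it was 0.301, 0.154 and 0.489 FPKM untreated, 0.429 FPKM with dox in line 889 and 1.79 FPKM in the mock library, and it was listed at 0 with dox in line 700, where a count of 0 allows up to 3 reads or 0.259 FPKM. Both BME dox pairs were lower, on 0 against 2 reads and on 6 against 7 reads, differences that could not be detected at this depth. On plastic it was 1.10, 0.0580 and 2.08 FPKM untreated and 9.06, 0.0671 and 12.6 FPKM with dox in lines 560, 700 and 889, so that lines 560 and 889 stood 8.22 and 6.07 times higher and line 700 had 1 read in each library. The fitted change was -0.40 in BME (limma adjusted p = 0.959; -1.77 by limma-voom on the rebuilt reads) and 1.47 on plastic (SE 0.984, adjusted p = 0.762). On plastic it was 0.79 without the dox library of line 889 and 2.62 without that of line 700.

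Cxcl5 was 3.42, 1.36 and 0.991 FPKM in untreated BME lines 682, 700 and 889, 0.881 and 5.24 FPKM with dox in lines 700 and 889, and 4.42 FPKM in the mock library. Plastic levels of Cxcl5 were 1.38, 8.88 and 4.01 FPKM untreated and 19.3, 4.38 and 46.1 FPKM with dox in lines 560, 700 and 889. Like Ccl20, it was higher with dox in lines 560 and 889 (14.05 and 11.48 times) and lower in line 700 (2.03 times). The fitted change was 0.07 in BME (limma adjusted p = 0.993) and 1.82 on plastic (SE 0.863, adjusted p = 0.644). It was -0.79 in BME without the dox library of line 889 and 0.94 without that of line 700, and on plastic 1.09 without the dox library of line 889 and 3.16 without line 700. Ccl20, Cxcl1, Cxcl2 and Cxcl5 were higher by over 1 with dox in line 889 in both environments and in line 560, and not in line 700 in either, a pattern described after the values were seen and shown by 0.518% of the 11977 genes kept in both tables. Ppbp, the neighbor of Cxcl5 and also a CXCR2 ligand, was 2.36, 1.27 and 2.64 FPKM untreated and 5.11, 1.90 and 6.77 FPKM with dox in lines 560, 700 and 889 on plastic (fitted change 0.77, SE 0.413, limma adjusted p = 0.677).

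**Figure D4:**
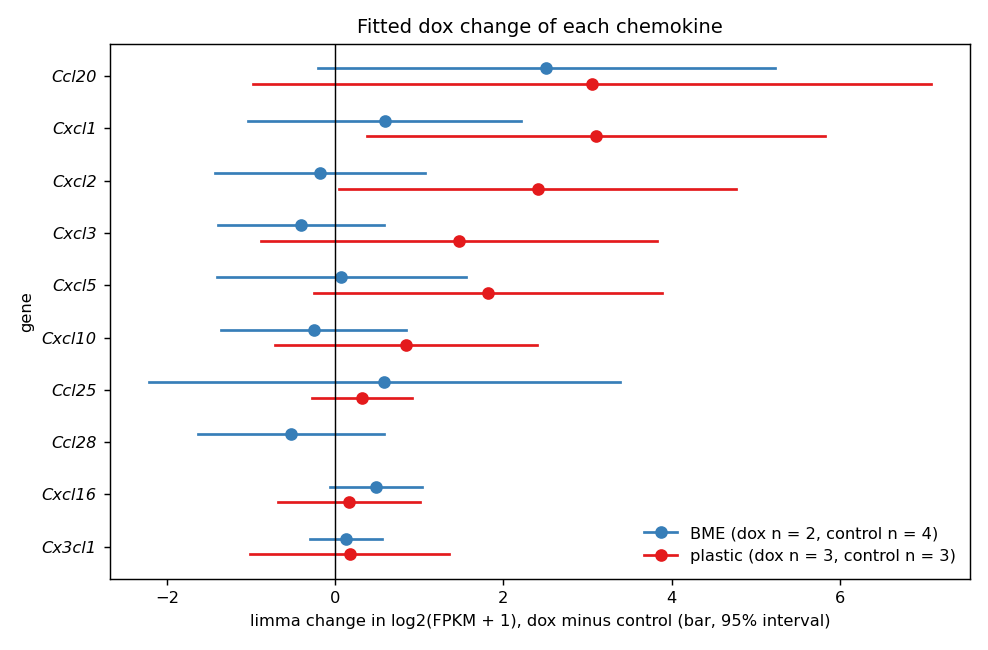
Fitted change of each chemokine across lines, in log2(FPKM + 1), dox minus control, with 95% intervals from limma (blue, BME, dox n = 2 and control n = 4; red, plastic, n = 3 each). On plastic the unadjusted intervals of Cxcl1 (0.39 to 5.83) and Cxcl2 (0.05 to 4.76) lie above 0, and no adjusted p passed in either environment; Ccl28 was tested in BME only.

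Cxcl10, an interferon-inducible chemokine for CXCR3-bearing T cells, took a different course in BME. It was 3.22, 6.73 and 3.43 FPKM in untreated lines 682, 700 and 889, and lower in every treated pair, at 1.88 FPKM in the mock library and 4.39 and 1.66 FPKM with dox in lines 700 and 889. The groups overlapped nonetheless, because the lines differed in level, and the fitted change was -0.25 (SE 0.454, limma adjusted p = 0.971). Leaving out single libraries gave fitted changes from -0.76 to 0.25. The same-line changes were -0.52 and -0.73 in lines 700 and 889. On plastic Cxcl10 was 1.43, 0.155 and 0.146 FPKM untreated and 2.74 and 3.98 FPKM with dox in lines 560 and 889 (56 against 29 and 62 against 3 reads). In line 700 it was listed at 0 with dox, which allows up to 3 reads or 0.180 FPKM, and 3 reads were seen untreated. The fitted change on plastic was 0.85 (SE 0.650, adjusted p = 0.798 by limma), with 0.21 without line 889 and 1.55 without the dox library of line 700.

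The mucosal homing chemokines Ccl25 and Ccl28 passed no test. Ccl25, which guides CCR9-bearing lymphocytes to the small intestine, was 9.78, 3.39 and 42.9 FPKM in untreated BME lines 682, 700 and 889, 4.50 and 45.2 FPKM with dox in lines 700 and 889, and 5.14 FPKM in the mock library, so that line 889 stood apart from the other lines whatever its treatment. On plastic all 6 libraries lay between 4.25 and 7.78 FPKM, line 889 included. With dox it was 1.83 and 1.42 times higher in lines 560 and 889 on plastic and 1.203 times lower in line 700. The fitted change was 0.59 in BME (SE 1.16, 95% interval from -2.22 to 3.39, limma adjusted p = 0.976) and 0.32 on plastic (SE 0.247, adjusted p = 0.801). In BME it ranged from -0.95 to 2.12 when single libraries were left out. On plastic it was 0.11 without line 560 and 0.59 without line 700. Ccl28, which attracts CCR10-bearing plasma cells, was 2.90, 1.10 and 0.884 FPKM in untreated BME lines, 1.49 and 0.689 FPKM with dox and 3.94 FPKM in the mock library (fitted change -0.53, SE 0.457, limma adjusted p = 0.959). Line 682, the highest, was in the control arm only, the same-line changes were 0.25 and -0.16 in lines 700 and 889, and with the line as a block the change was 0.045. On plastic it ranged from 0.102 to 0.373 FPKM, on 7 to 29 reads, too few to tell its libraries apart.

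The transmembrane chemokines Cxcl16 and Cx3cl1, which metalloproteases release from the cell surface, were the most evenly expressed members in BME, whereas on plastic Ccl25 had the narrower range. In BME, Cxcl16 was 54.1, 75.7 and 66.1 FPKM untreated, 72.9 and 99.4 FPKM with dox in lines 700 and 889 and 49.1 FPKM in the mock library (fitted change 0.49, SE 0.227, limma adjusted p = 0.959; 0.27 without the dox library of line 889). On plastic it was 162, 177 and 216 FPKM untreated and 167, 151 and 349 FPKM with dox in lines 560, 700 and 889 (fitted change 0.17, SE 0.353, adjusted p = 0.942). Cx3cl1 was 42.7, 49.1 and 33.9 FPKM untreated, 48.8 and 43.1 FPKM with dox and 43.1 FPKM in the mock library in BME, with a fitted change of 0.13 and a 95% interval from -0.30 to 0.56 that is the narrowest of the 10 members there (limma adjusted p = 0.963; 0.031 without untreated line 889 and 0.22 without the dox library of line 889). On plastic it was 24.9, 24.7 and 9.80 FPKM untreated and 36.6, 12.4 and 19.4 FPKM with dox in lines 560, 700 and 889. Line 700 was again the line that was lower with dox (1.99 times), and lines 560 and 889 were higher (1.47 and 1.98 times). Adam10 and Adam17, the proteases that shed both proteins, had fitted changes of 0.35 and 0.09 in BME and 0.67 and 0.47 on plastic, and 0 of 2 were called in either environment.

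The mock pair received dox while its Smad4 level differed by 1.15 times (10.3 against 8.88 FPKM). In that pair 7 of 10 members were higher and 3 lower, with a median change of 0.32, and 3 were higher by over 1, Cxcl1 (1.16), Cxcl2 (1.30) and Cxcl3 (1.10), and 0 lower by over 1, where 1.29% and 1.18% of all genes were. These genes stood 2.38, 3.45 and 5.95 times higher in the mock library (237 against 103, 70 against 21 and 23 against 4 reads). Ccl20 was 1.41 times higher there, against 1.71 and 39.5 times in the BME dox pairs of lines 700 and 889. Cxcl5 was 1.29 times higher in the mock pair, 1.54 times lower in line 700 and 5.29 times higher in line 889. Cxcl10 was 1.72 times lower, within the 1.53 and 2.06 times of lines 700 and 889. The part of dox itself, apart from SMAD4, in the values of lines 560, 700 and 889 was not tested.

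Read against the known restraint of inflammatory signals by SMAD4, the direction differed by line and by gene. Members lower with dox numbered 6 of 10 in line 700 and 3 of 10 in line 889 in BME, and 0, 6 and 0 of 9 in lines 560, 700 and 889 on plastic. In BME, Cxcl3 (on 7 reads or fewer) and Cxcl10 were lower in both dox pairs and Ccl20, Ccl25 and Cxcl1 were higher in both, which is 2 and 3 of 10 where 29.5% and 27.2% of all genes did so. On plastic no tested member was lower in all 3 pairs and 3 (Cxcl1, Cxcl2 and Cxcl3) had a change above 0 in all 3, where 18.7% and 18.6% of all genes did so, but in line 700 Cxcl3 had 1 read in each library Cxcl2 6 reads against 3, and Cxcl1 170 against 109. Line 700, in which no member was higher by over 1, had 18.1 FPKM Smad4 with dox on plastic against 73.6 and 48.9 FPKM in lines 560 and 889, and it entered with the highest untreated Ccl20 and Cxcl5 levels on plastic. The part of either in the line difference was not tested.

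The fitted dox change was higher on plastic than in BME for 7 of 9 members, but none of the differences passed. The difference was 2.59 for Cxcl2 (SE 1.24), 2.52 for Cxcl1 (SE 1.48), 1.87 for Cxcl3 (SE 1.19) and 1.74 for Cxcl5 (SE 1.17), each with an adjusted p of 1.00 by the limma interaction test, in which 0 of 11977 genes were called. Over fits that each left out a single library these ranged from 1.19 to 3.03 for Cxcl3, from 0.88 to 2.61 for Cxcl5, from 1.49 to 3.84 for Cxcl1 and from 1.83 to 3.81 for Cxcl2, and limma-voom gave 3.73 for Cxcl3, while lines 700 and 889 alone gave 0.51 for Cxcl5. Ccl20 differed by 0.54 (95% interval from -4.46 to 5.54), and by -1.66 to 2.75 when single libraries were left out. At an unadjusted p under 0.05 with a difference over 1 in size, 0 of the 9 members were higher or lower on plastic, where 0.710% and 0.618% of genes were.

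Other chemokine genes were mostly silent. Of 28 further chemokine genes 7 passed the filter in each environment, 9 were listed at 0 in all BME libraries and 10 in all plastic libraries, and limma called none in either direction. Their median fitted change was -0.05 in BME and on plastic. The monocyte chemokine Ccl2 followed the course of Ccl20 and Cxcl5 on plastic, with 4.13, 4.67 and 11.5 FPKM untreated and 21.0, 1.53 and 92.9 FPKM with dox in lines 560, 700 and 889, and in BME it was 18.8 and 44.0 FPKM without and with dox in line 889 and under 1 FPKM in the other lines (fitted changes 1.28 and 1.36, limma adjusted p = 0.843 and 0.963). The macrophage chemokines Ccl6 and Ccl9 were lower in all 3 treated BME pairs, the mock pair included: Ccl6 was 16.4, 6.11 and 13.5 FPKM untreated and 2.29, 1.27 and 7.40 FPKM treated in lines 682, 700 and 889, and Ccl9 was 10.5, 3.38 and 7.55 FPKM against 2.40, 1.07 and 2.89 FPKM (fitted changes -1.005 and -1.13, limma adjusted p = 0.959 for each). On plastic both were lower with dox in lines 560 and 700 and higher in line 889, from 18.2, 0.348 and 0.545 to 3.95, 0.179 and 1.29 FPKM for Ccl6 in lines 560, 700 and 889, with fitted changes of -0.53 (Ccl6) and -0.29 (Ccl9). Of 23 chemokine receptors 5 passed the filter in each environment and none was called. Ccr6, the receptor of Ccl20, was listed at 0 in all 12 libraries, and Cxcr2 lay between 0.471 and 2.01 FPKM, on 24 to 88 reads. Cxcr4, the receptor of Cxcl12, was 24.5, 6.23 and 1.53 FPKM in untreated BME lines 682, 700 and 889, 0.665 and 3.25 FPKM with dox in lines 700 and 889 and 20.6 FPKM in the mock library (fitted change -1.91, limma adjusted p = 0.959). It was 1.02, 0.12 and 0.03 FPKM untreated and 5.94, 0.10 and 6.91 FPKM with dox in lines 560, 700 and 889 on plastic (fitted change 1.57, SE 0.776, limma adjusted p = 0.649). These came from 211 against 36 reads in line 560 and 188 against 1 in line 889. Line 700 had 3 against 4 reads, too few to tell its libraries apart.

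The cytokines that induce these chemokines, and the genes of NF-κB, were read from 2 further lists. Of 30 inducing cytokines, their receptors and Toll-like receptors, 22 passed the filter in each environment. None of these was called in BME or on plastic, where 0.0231% and 0.0324% of all genes were. Median fitted changes were 0.11 in BME and 0.38 on plastic. In BME 9 were higher and 6 lower in both dox pairs (27.2% and 29.5% of all genes). On plastic 8 were higher and 2 lower in every pair (18.6% and 18.7%). Groups did not overlap there for 5 higher and 1 lower (7.87% and 7.26%). At a limma unadjusted p under 0.05 with a change over 1, 3 were higher and 0 lower on plastic (2.37% and 1.27%). Il1a, which encodes IL-1α, was higher in every pair. It was 2.68, 4.17 and 3.0 FPKM in untreated BME lines 682, 700 and 889 against 14.8 and 26.5 FPKM with dox in lines 700 and 889 and 20.5 FPKM in the mock library, and its plastic levels were 14.8, 85.5 and 43.7 FPKM without and 343, 454 and 1270 FPKM with dox in lines 560, 700 and 889. In line 700 on plastic Il1a was higher and Ccl20 lower with dox, whereas in BME both were higher in that line. The fitted change of Il1a was 1.71 in BME (SE 0.748, limma adjusted p = 0.959) and 3.89 on plastic (SE 0.731, unadjusted p = 0.00132, adjusted p = 0.230). Tnf, which encodes TNF, was far higher with dox in lines 560 and 889 and close to its untreated level in line 700, at 9.69, 11.5 and 13.3 FPKM untreated and 39.6, 11.3 and 83.9 FPKM with dox in lines 560, 700 and 889 on plastic (fitted change 1.49, limma adjusted p = 0.617). The receptor genes Tnfrsf1b and Ifngr1 were higher with dox on plastic in all 3 lines, line 700 included. Their fitted changes there were 1.43 and 1.22 (limma adjusted p = 0.417 and 0.157). Of 25 genes for NF-κB subunits, inhibitors and feedback, 23 were tested in BME and 24 on plastic, and none was called, with median changes of 0.01 and 0.39. Zc3h12a, an NF-κB feedback gene that encodes an RNase for cytokine transcripts, was 5.60, 7.03 and 7.71 FPKM untreated and 26.2, 12.7 and 56.9 FPKM with dox on plastic (fitted change 1.85, SE 0.504, adjusted p = 0.431 by limma), higher in 3 of 3 lines, and Nfkbiz was 1.96, 10.1 and 5.43 FPKM against 10.8, 7.62 and 16.6 FPKM, lower in line 700 alone. In BME 10 of the 23 tested NF-κB genes were higher and 4 lower in both dox pairs (27.2% and 29.5% of all genes). Groups did not overlap there for 3 higher and 0 lower (6.33% and 5.83%). On plastic 8 of the 24 tested genes were higher in every pair and 1 was lower, where 18.6% and 18.7% of all genes were. There, groups did not overlap for 2 higher (Rel and Zc3h12a) and 1 lower, where 7.87% and 7.26% of all genes did so. The lower gene in both plastic counts was Icam1, an adhesion molecule for leukocytes named, like Rel, after its values were seen, with same-line changes of -1.16, -0.51 and -0.57 in lines 560, 700 and 889 (fitted change -0.75, limma unadjusted p = 0.0394, adjusted p = 0.583).

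**Figure D5:**
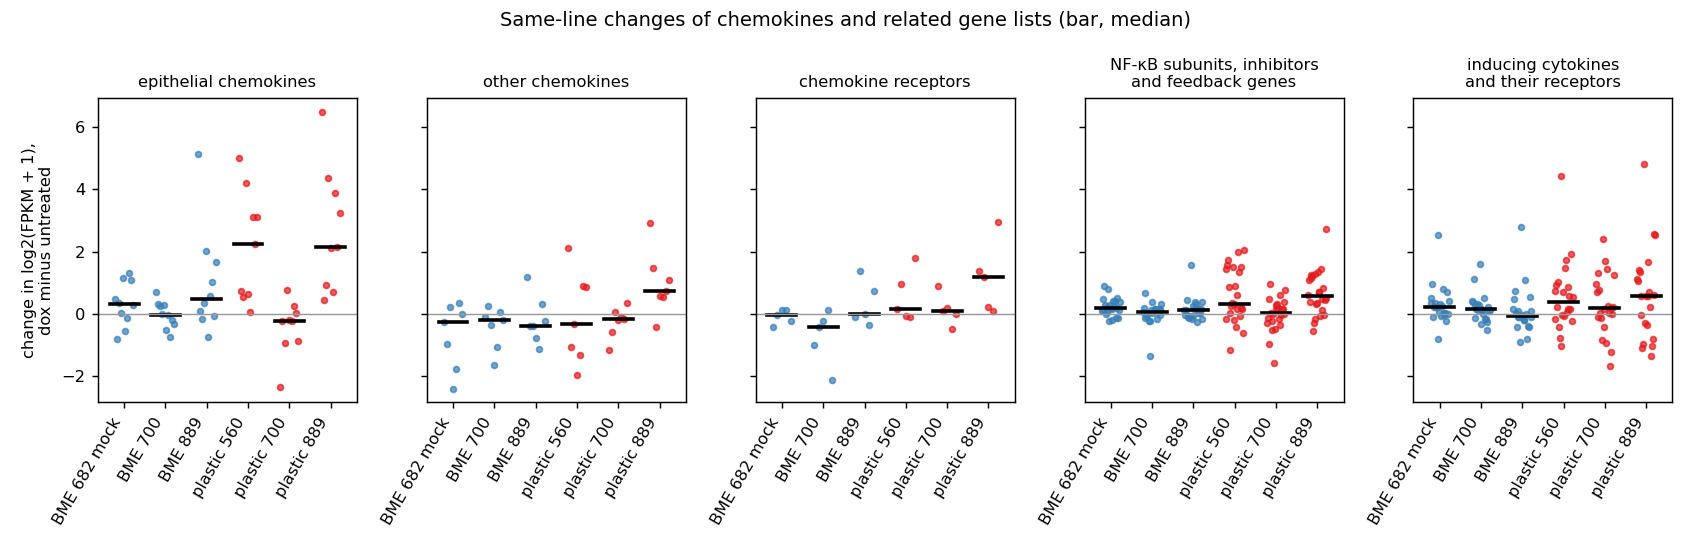
Change in log2(FPKM + 1), dox minus untreated, of every tested gene of 5 lists in the 6 same-line pairs (points, genes; bars, medians; blue, BME; red, plastic). The epithelial chemokines have medians of 2.26 and 2.14 in lines 560 and 889 on plastic, where the medians of the other lists lie between -0.31 and 1.19, and -0.22 in line 700.

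Markers of other cells were read beside these results. The 15 leukocyte markers summed to 31.9 to 39.5 FPKM in the BME dox libraries and 40.4 to 61.1 FPKM in the BME control arm, and to 17.9 to 85.6 and 34.4 to 78.1 FPKM with and without dox on plastic. Of the 15, 9 and 6 stayed under 0.5 FPKM in every BME dox and every BME control library, and 10 and 8 on plastic. Cd14 or Cd68 was the highest in each group, and Ptprc, Cd3e, Cd4 and Adgre1 were at or under 0.10 FPKM in every library. The 8 epithelial markers summed to 7899 to 9849 FPKM in the BME dox libraries against 4231 to 5229 FPKM in the BME control arm, and to 11896 to 17386 against 13255 to 14542 FPKM on plastic, and their part in the BME values was not tested. The 10 fibroblast and endothelial markers summed to at most 3.33 FPKM in the BME control arm and 0.663 FPKM in untreated plastic libraries, and were highest in the dox libraries of line 889, at 8.21 FPKM in BME and 21.8 FPKM on plastic. In BME line 889, the dox pair with the higher chemokines there, Col1a1 was 4.13 against 0.750 FPKM and Vim 2.39 against 0.354 FPKM, whereas Pdgfrb was 0.379 against 1.70 FPKM and Dcn 0 against 0.238 FPKM. In the plastic dox library of line 889, the one with the highest Ccl20, Cd68 was 38.7 FPKM against 2.70 FPKM in its untreated pair and Vim 21.6 against 0.44 FPKM. S100a8 (12.2 against 3.53 FPKM) and S100a9 (6.36 against 1.04 FPKM) were also higher there, Ly6g (1.63 against 6.24 FPKM) and Csf1r (0.470 against 0.860 FPKM) were lower, and Lum was listed at 0 in all plastic libraries. Line 560, whose chemokines were also higher, had 12.5 against 15.1 FPKM Cd68 and 2.53 against 0.45 FPKM Vim. The part of these marker values in the chemokine values was not tested.

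For each member kept in both tables, the gene with the most similar set of same-line changes was found by the root mean square difference over the 5 dox pairs among 11977 genes. The nearest gene to Cxcl1 was Sowahc (0.369), to Cxcl2 Hpgds (0.229), which encodes a prostaglandin D synthase, to Cxcl3 Itga2 (0.164), an integrin subunit for collagen, and to Cxcl5 Jag1 (0.431), a Notch ligand. The nearest gene to Ccl20 was Dusp2 (1.25), a MAPK phosphatase, the largest of these distances. Nearest to the remaining members were Prkcd to Ccl25 (0.124), Bcl11b to Cxcl10 (0.243), Jaml to Cxcl16 (0.148) and Dcbld1 to Cx3cl1 (0.184). Among the members themselves the closest pairs were Cxcl16 and Cx3cl1 (0.415), Ccl25 and Cxcl16 (0.435), Ccl25 and Cx3cl1 (0.438), and Cxcl2 and Cxcl5 (0.669). The 5 pairs come from 3 lines, and the distances are given as a description.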

How the data were processed

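RNA-Seq was made from 12 organoid cultures. Per the labels' processing notes and the methods, the authors quantified reads with kallisto, named mm9 as genome build and used DESeq2; versions are not given in the sources used here. They deposited a table per environment with FPKM per library, each normalized separately, and separate tables of their own comparisons, of which only the mean normalized signal per gene (counts divided by size factors) was used, not the fold changes and p-values. Chemokine genes and gene lists were chosen with earlier results of these data known. Genes with a mean of at least 0.5 FPKM over an environment's 6 libraries were tested with limma 3.58.1 (R 4.3.3; eBayes with trend, two-sided) on log2(FPKM + 1), a scale that understates the change of low genes. Benjamini-Hochberg adjustment ran over all tested genes. Calls needed an adjusted p under 0.05 with a change over 1 in size. The difference between environments was a limma interaction over genes kept in both tables, with environment as a term. The mock library stayed in the control arm. Smad4 was tested by exact permutation.

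Reads were rebuilt from FPKM and the authors' mean count by finding what 1 read is worth in each library; 84.5 to 88.2% of normalized counts under 6 then came out whole within 0.02, which gave 14507293 to 21027887 reads per library. These rebuilt reads are not the authors' count table, so the count model stayed an alternative. Limits for 0 reads cover counting error only, and 95% intervals of fitted changes come from the spread between libraries. Libraries of the same line and environment deviated together from their group means (correlations of 0.61 and 0.66 in BME and 0.46, 0.61 and 0.25 on plastic), and the shared line pairs them. All 10 chemokines were named. Of the other lists, the text names up to 3 genes with the largest fitted change per environment; Ccr6, Cxcr2, the Adam genes, markers and Smad4 were named beside them for their relation to a member. The fits were also run on simulated data with large changes in well-expressed genes and no difference between lines. That run does not bear on low genes or on lines that differ. Alternatives were pseudocount, filter, upper-quartile scaling, replicate block, place of the mock library and leaving out libraries; limma-voom and leaving out whole lines were chosen after seeing the data. Gene positions are from GENCODE M1 (NCBIM37) and promoter windows from RefSeq.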

Additional observations from a re-analysis of the deposited data

Results flagged for a closer look

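Ccl25 in untreated line 889 in BME (42.9 FPKM) lay far from the other 3 libraries of the control arm (9.78, 5.14 and 3.39 FPKM), with a gap of 0.838 of the group's range on the FPKM scale. On the log2(FPKM + 1) scale used for the tests it did not stand apart, and no other chemokine did on either scale, where chance alone would set apart about 0.5 of the 10 chemokines on each scale. The dox library of line 889 in BME was as high (45.2 FPKM).

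The fitted dox change of Cxcl3 was 1.87 higher on plastic than in BME on the log2(FPKM + 1) scale, and it was singled out because its same-line changes were below 0 in both BME dox pairs and above 0 in all 3 plastic pairs. Those signs rest in part on very few reads, 0 against 2 and 6 against 7 in BME and 1 against 1 in line 700 on plastic, so an opposite movement was not shown. The test of the difference did not pass (SE 1.19, limma interaction, adjusted p = 1.00).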

How the results depend on the processing

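Both environments have few lines, and low read counts limit Cxcl2, Cxcl3, Cxcl10 and Ccl28. In BME the 3 genes called became 1 at a pseudocount of 0.1, 1 by limma-voom, 0 above 2 FPKM, 0 with the replicate block (pairing by line), 0 without the mock library and 0 with it counted as dox; leaving out single libraries gave 0 to 37 genes and 0 to 1 members, with 37 and 1 (Ccl20) without the dox library of line 700, which leaves 1 dox library assumed to vary like the controls, and 0 without any other. On plastic the 4 genes became 10 at a pseudocount of 0.1, 0 without a filter, 7 with the replicate block and 11 by limma-voom, and leaving out single libraries gave 0 to 55 genes and 0 to 1 members, with 55 and 1 (Cxcl2) without the dox library of line 700, 2 and 0 without that of line 889 and 0 without any other. Without whole lines, chosen after seeing the data, it was 13 genes without line 700 and 0 without line 560 or 889, and 0 members each time. The difference between environments had 5 calls without a filter. The block changed no chemokine's call: on plastic Cxcl1 had 3.11 (adjusted p = 0.219) and Ccl20 3.05 (adjusted p = 0.505), by limma. Signs turned for these chemokines, none of them called. In BME, Ccl25 was -0.14 with the mock library counted as dox, Ccl28 0.045 with the block and 0.14 with the mock as dox, Cxcl2 0.14 with the block, 0.14 without the mock and 0.52 with it as dox, and Cxcl3 0.28 with it as dox. Differences between environments turned to -0.85 (Ccl20) and -0.18 (Cx3cl1) in lines 700 and 889 only and to 0.12 (Ccl25) with the block. On plastic Cx3cl1 was -0.011 without line 560 and -0.20 without line 889, and Cxcl16 -0.091 without line 889. Leaving out single libraries or lines turned signs within ranges of -0.95 to 2.12 (Ccl25), -0.33 to 1.51 (Cxcl1), -0.76 to 0.25 (Cxcl10), -0.67 to 0.31 (Cxcl2) and -0.79 to 0.94 (Cxcl5) in BME, -0.25 to 0.73 (Cx3cl1) and -0.21 to 0.39 (Cxcl16) on plastic, and -1.66 to 2.75 (Ccl20), -1.80 to 1.27 (Ccl25) and -0.38 to 0.39 (Cx3cl1) for the difference. The cause of these shifts was not tested.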
